A study of Mus musculus with 2 samples.

Results

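The 39 genes described here are genes that earlier studies often found raised in old mouse hematopoietic stem cells (HSCs). They were listed by name with earlier results of these data known, so they are not a list independent of the values below. They are 39 of 21911 protein-coding genes of the mouse annotation. Each gene was followed in single-cell ATAC-seq, an assay in which a transposase cuts accessible DNA and the resulting fragments carry a barcode for the cell of origin. HSCs were sorted from the bone marrow of female C57BL/6 mice as Sca-1+, c-kit+ and CD150+ cells that were Lin-, IL-7-, Flt3-, CD48- and CD34-, and processed with the Chromium Next GEM v1.1 kit. The young group was 10 weeks old and the aged group 20 months old. With 1 library per age, age, animals and library cannot be told apart. No test between ages is possible, and the number of mice behind each library is not given in the sources used here. Intervals below are 95% intervals that cover counting error only, or, for medians, the spread over genes or peaks.

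HSCs sit at the top of the blood cell hierarchy and stay quiescent for long periods. With age, the pool expands phenotypically while its output shifts toward platelets and myeloid cells. Genes described as raised in aged HSCs include metallothioneins and detoxifying enzymes, growth factor and guidance receptors, adhesion proteins of the kind also used by endothelium, caveolar and vesicle proteins, and the Hippo pathway coactivator TAZ. Accessibility at a promoter marks a start site that regulators can reach, and accessible regions inside or near a gene are often enhancers. ATAC-seq counts cuts and not transcripts, so the values below are not expression.

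The young library held 5028 barcodes called as cells by the authors and the aged library 3694. Restricting them to 3000 to 20000 fragments in the authors' peaks kept 4887 young and 3405 aged cells, with a median of 9890 and 11020 fragments per cell. The aged library had fewer fragments shorter than 1 nucleosome (55.0% against 59.8%) and a lower TSS enrichment (5.09 against 5.53). Barcodes marked as doublets made up 4.42% of young and 6.73% of aged cells and were kept, and 26 kept barcodes occurred in both libraries. Levels are fragments per 1000000 fragments in peaks (FPM), with 34651127 such fragments in young and 26150300 in aged cells. The label of the cells was checked with markers: the median level at the transcription start site (TSS) of HSC markers was 20.2 FPM in the young and 21.8 FPM in the aged library, against 0.837 and 0.574 FPM for T cell markers and 0.794 and 0.841 FPM for granulocyte-monocyte markers. The B cell markers had 2.21 and 1.76 FPM and the erythroid markers 1.26 and 1.74 FPM, while the megakaryocyte markers, some of which are also active in HSCs, had 13.2 and 13.8 FPM. The endothelial markers, with 11.33 and 12.05 FPM, and the stromal markers, with 9.65 and 10.5 FPM, were not low, and the median of all protein-coding genes was 14.3 and 15.1 FPM. The HSC list was thus the highest, with the T cell, B cell, erythroid and granulocyte-monocyte lists far below it and the other lists between.

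Of the elements with the highest ratios in the member loci, the first 4 that lay in introns clear of exons are shown by their central 200 bases. The highest ratios of the list were measured at such elements. The ranking took peaks with at least 100 fragments over both libraries together. Peaks weak in the young library thus entered it mainly through aged fragments. They are written 5′ to 3′ on the strand of the gene, in mm10. Capitals mark 1 of 4 short words that were searched on both strands: TGANTCA, bound by AP-1 factors; AGATAA, bound by GATA factors; TGTGGT, bound by RUNX factors; and TTCNNNGAA, bound by STAT factors. The first sequence, chr3:57516276-57516475, and the second, chr3:57512431-57512630, come from Wwtr1, and the latter holds the AP-1 word. The Oxr1 element is chr15:41825413-41825612 and holds the RUNX word, and the Bmpr1a element is chr14:34488859-34489058 and holds a RUNX and a GATA word.
Wwtr1, intron, highest ratio: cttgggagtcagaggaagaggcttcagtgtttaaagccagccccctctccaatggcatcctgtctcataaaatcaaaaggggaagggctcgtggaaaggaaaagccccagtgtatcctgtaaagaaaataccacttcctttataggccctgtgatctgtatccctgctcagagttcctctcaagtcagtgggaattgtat
Wwtr1, intron, second highest ratio: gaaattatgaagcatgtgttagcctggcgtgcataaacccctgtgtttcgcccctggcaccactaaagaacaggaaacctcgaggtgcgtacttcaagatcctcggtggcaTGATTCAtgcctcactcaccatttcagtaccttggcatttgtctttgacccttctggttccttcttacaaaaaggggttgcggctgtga
Oxr1, intron: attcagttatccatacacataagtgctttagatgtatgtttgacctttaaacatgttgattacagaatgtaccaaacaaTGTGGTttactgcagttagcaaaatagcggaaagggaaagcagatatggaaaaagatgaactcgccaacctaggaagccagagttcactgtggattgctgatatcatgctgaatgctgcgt
Bmpr1a, intron: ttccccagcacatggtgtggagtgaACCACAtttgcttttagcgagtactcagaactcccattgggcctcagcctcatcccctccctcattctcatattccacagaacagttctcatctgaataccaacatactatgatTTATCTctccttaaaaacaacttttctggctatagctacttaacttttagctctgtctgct

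Accessibility at the TSS was higher in the aged library for most of the genes. Within 1 kb of the 5′ end of the gene, the summed level was 836 FPM in the young and 1032 FPM in the aged library, a ratio of 1.23, whereas the sum over all protein-coding genes had a ratio of 0.963. A minimum of 50 fragments, over both libraries together, was met by 38 of the 39 genes, all but Aldh1a1. Over the 38 genes the log2 ratio, aged over young, had a median of 0.40 (0.19 to 0.67), beside -0.05 over all genes, and 33 of 38 (86.8%) lay above 0, against 35.8% of all genes. A threshold was set at a log2 ratio of 0.32 in either direction, which is 25% more in the library with the higher level. Past it, 23 of 38 members (60.5%) were higher in the aged library, beside 9.49% of all genes. No member was lower past the threshold, beside 3.96% of all genes. The counting interval of the ratio lay above 0 for 27 of the 38 members, beside 12.2% of all genes, and below 0 for 3, beside 23.2%.

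The same held over the wider locus, taken as the gene body with 20 kb on either side. All 39 genes met the minimum there, and their summed level was 4967 FPM in the young and 6067 FPM in the aged library. The median log2 ratio was 0.32 (0.19 to 0.40) against -0.02 for all genes. Past the same threshold, 19 of 39 loci (48.7%) were higher in the aged library, beside 10.7% of all genes. None was lower past it, beside 0.854% of all genes. The 2 windows did not always go together. Of the 38 members with the minimum in both, 15 were past the threshold higher in both, beside 3.77% of all genes, and 8 at the TSS only, beside 5.72%. A further 3 were past it over the locus only, beside 1.09%, and 12 in neither, beside 89.4%. Across the genes with both values, the log2 ratios had a Pearson's r of 0.61 and a Spearman's rho of 0.60, given as a description, since the locus holds the TSS window and both share the libraries. The 39 genes lie on 17 chromosomes, so they are not 1 domain. The loci of Mt1 and Mt2 overlap, and 18 loci hold the TSS of another protein-coding gene. Without 1 kb around such TSSs, Jam2 and Clca3a1, past the threshold at the TSS only, had locus log2 ratios of 0.54 and 0.49. The other members past it at the TSS only stayed under it.

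**Figure D1:**
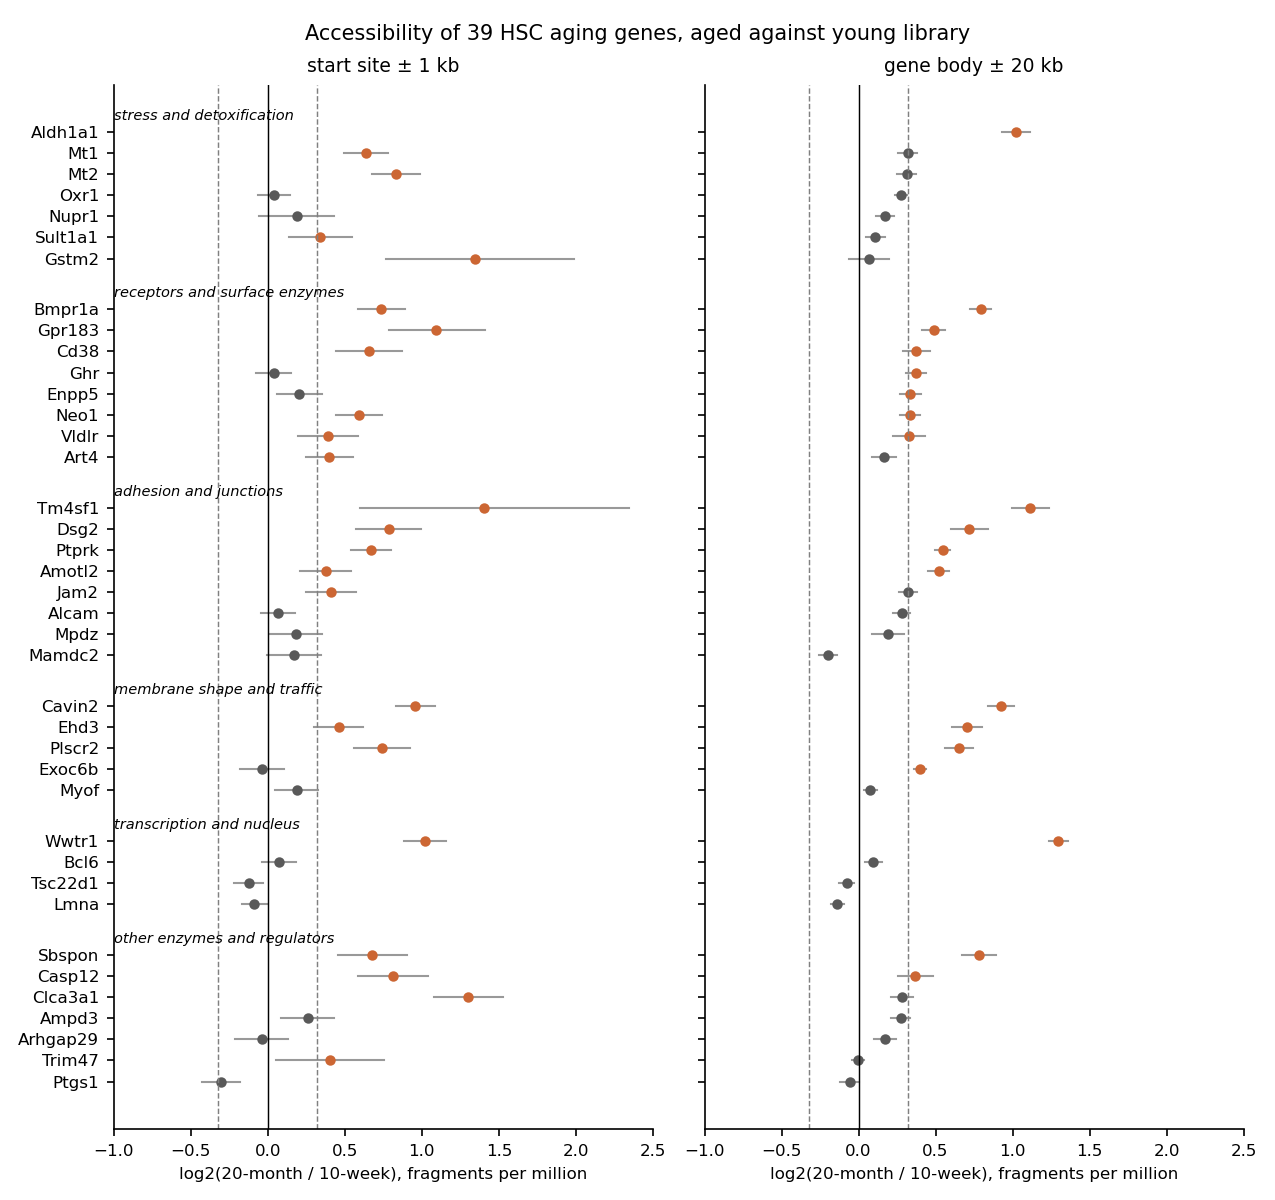
Log2 ratio of aged to young accessibility for each gene within 1 kb of the TSS (left) and over the gene body with 20 kb on either side (right), ordered by role. Points are ratios, bars are 95% counting intervals, dashed lines mark a log2 ratio of 0.32 in either direction and orange marks genes past it. At the TSS 23 genes lie past the upper line and over the locus 19, while none lies past the lower line. Aldh1a1 is not shown at the TSS, where it holds 15 fragments.

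Among the genes of stress response and detoxification, the metallothioneins stood out at the TSS. Mt2, which binds zinc, copper and toxic metals, had 17.2 FPM at its TSS in the young and 30.6 FPM in the aged library, a log2 ratio of 0.83 (0.68 to 0.99). Its neighbor Mt1, which has the same role, had 21.4 FPM and 33.3 FPM, a log2 ratio of 0.64 (0.49 to 0.78). Both were higher in the aged library at their own starts, while their overlapping loci, with log2 ratios of 0.31 and 0.32, stayed just under the threshold before rounding. Gstm2, a glutathione transferase that conjugates electrophiles, had few fragments at its TSS, 36 young and 70 aged, or 1.04 and 2.68 FPM. That is a log2 ratio of 1.35, but the log2 ratio over its locus was 0.07. Sult1a1, a sulfotransferase of phenols, had 11.6 and 14.7 FPM at the TSS (log2 ratio 0.34). The locus of Aldh1a1, the retinaldehyde dehydrogenase used as a stem cell marker, was the only one of this role past the threshold, with 48.4 FPM in the young and 98.4 FPM in the aged library (log2 ratio 1.02). Its annotated 5′ end held 6 young and 9 aged fragments, while a peak 109071 bp downstream, 175 bp from another annotated start of Aldh1a1, had 262 young and 578 aged fragments (log2 ratio 1.54). Another peak of the gene body, 12416 bp from the nearest Aldh1a1 start, had 10.4 and 17.9 FPM (log2 ratio 0.78), and the 5′ end held too few fragments for a ratio. Oxr1, which protects against oxidative damage, had 52.0 and 53.4 FPM at the TSS, the lowest log2 ratio of the role at 0.04, and Nupr1, a stress-induced nuclear protein, had 8.98 and 10.2 FPM (log2 ratio 0.19).

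The metallothionein promoters were also compared by sequence. Genes that answer to metal carry the metal response element, searched here as TGCGCNC or TGCACNC on either strand in the 200 bases before the start. The element word was present in 12 of 39 members (30.8%) and in 20.2% of all protein-coding genes. Before the start given by GENCODE, the Mt2 promoter held 3 such words, which 1.09% of all genes equal or exceed, and the Mt1 promoter 1. The stretch shown for Mt2, chr8:94172464-94172617 in mm10, ends before the first exon of Mt2 given by RefSeq and overlaps an exon of the non-coding gene Gm45774 on the other strand. Capitals mark 2 metal response words and the AP-1 word between them. The third metal response word is not wholly within this stretch, so the count of 3 depends on which start is used.
Mt2, promoter: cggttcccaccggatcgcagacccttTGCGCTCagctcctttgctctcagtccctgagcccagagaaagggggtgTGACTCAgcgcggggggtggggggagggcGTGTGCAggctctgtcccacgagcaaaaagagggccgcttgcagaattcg
Accessibility of the promoter peaks that hold the starts was 13.3 FPM in the young and 24.4 FPM in the aged library for Mt2 (log2 ratio 0.87), and 17.3 and 27.2 FPM for Mt1 (log2 ratio 0.65).

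Receptors and surface enzymes had the most members past the threshold, 6 of 8 at the TSS and 7 of 8 over the locus. Bmpr1a, a type I receptor for bone morphogenetic proteins, had 18.1 FPM at the TSS in the young and 30.2 FPM in the aged library (log2 ratio 0.73), and 86.5 and 150 FPM over its locus (log2 ratio 0.79). Gpr183, an oxysterol-sensing G protein-coupled receptor that guides B cells, had 4.07 and 8.68 FPM at the TSS, a log2 ratio of 1.09 (0.78 to 1.41). Cd38, an ectoenzyme that consumes NAD, had 330 and 392 fragments there (log2 ratio 0.65). All 3 were higher in the aged library over the locus too, with log2 ratios of 0.79, 0.49 and 0.38, although with flanks of 50 kb Gpr183 and Cd38 had 0.17 and 0.26 and did not pass the threshold. Neo1, the neogenin receptor for netrins and repulsive guidance molecules, had 20.2 and 30.4 FPM at the TSS (log2 ratio 0.59) and a locus log2 ratio of 0.33. Vldlr, a lipoprotein receptor, had 12.7 and 16.7 FPM (log2 ratio 0.39) and a locus log2 ratio of 0.33. Art4, of the ADP-ribosyltransferase family, had 20.3 and 26.7 FPM at the TSS (log2 ratio 0.40), with a locus log2 ratio of 0.16 that did not pass the threshold. In Ghr and Enpp5 the order was turned around, with the locus past the threshold and the TSS not. Ghr, the growth hormone receptor, had 41.5 and 42.6 FPM at the TSS (log2 ratio 0.04) against 123 and 159 FPM over the locus (log2 ratio 0.37). Enpp5, of the ectonucleotide pyrophosphatase family, had 23.3 and 26.9 FPM at the TSS (log2 ratio 0.21) against 98.3 and 124 FPM over the locus (log2 ratio 0.34).

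Of the adhesion and junction genes, 5 of 8 were past the threshold higher at the TSS and 4 of 8 over the locus. Tm4sf1, a membrane protein of migrating endothelial cells, had 26.7 FPM over its locus in the young and 57.9 FPM in the aged library, a log2 ratio of 1.11. Its annotated 5′ end held 18 and 37 fragments, and the most accessible peak of the locus, 6886 bp downstream and 23 bp from another Tm4sf1 start, had 363 young and 730 aged fragments (log2 ratio 1.41). Dsg2, a desmosomal cadherin, had 9.61 and 16.6 FPM at the TSS (log2 ratio 0.78) and 29.4 and 48.3 FPM over the locus (log2 ratio 0.72). Both loci were among the least accessible of the list, and both were higher in the aged library in the 2 windows. Ptprk, a receptor-type tyrosine phosphatase found at cell contacts, had 26.2 and 41.8 FPM at the TSS, a log2 ratio of 0.67 (0.54 to 0.80), and 175 and 256 FPM over the locus (log2 ratio 0.55). Amotl2, of the angiomotin family that binds Hippo pathway proteins, had 17.6 and 22.8 FPM at the TSS (log2 ratio 0.38), and Jam2, a junctional adhesion molecule, 18.4 and 24.5 FPM (log2 ratio 0.41). Over the locus Amotl2 had a log2 ratio of 0.52, and Jam2 had 0.32, just under the threshold before rounding. Across the alternatives the TSS value of Amotl2 went down to 0.20, under the threshold. The rest of the role did not pass the threshold in either window. The lowest log2 ratio at the TSS, 0.07, was that of Alcam, an immunoglobulin-type adhesion molecule with 44.4 and 46.5 FPM, whose locus had 0.28 (0.22 to 0.33). Mpdz, a PDZ scaffold of junctions, had 0.18 at the TSS and 0.19 (0.09 to 0.30) over the locus. Mamdc2, a secreted proteoglycan, had the lowest locus ratio of all 39 genes, with 166 FPM in the young and 145 FPM in the aged library, a log2 ratio of -0.20 (-0.26 to -0.14) that did not pass the threshold.

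Genes of membrane shape and traffic were led by Cavin2, a coat protein of caveolae. It had 24.6 FPM at the TSS in the young and 47.8 FPM in the aged library, a log2 ratio of 0.96 (0.83 to 1.09), and 57.3 and 109 FPM over the locus (log2 ratio 0.93). Cavin2 was the member with the largest share of the summed difference at the TSS, 11.8%. Plscr2, of the phospholipid scramblase family, had 13.0 and 21.8 FPM at the TSS (log2 ratio 0.74), and Ehd3, an endocytic recycling protein, 18.4 and 25.4 FPM (log2 ratio 0.46). Their loci had log2 ratios of 0.65 and 0.70. Exoc6b, an exocyst subunit, was level at the TSS with 27.8 and 27.0 FPM (log2 ratio -0.04), and yet its locus had 322 FPM in the young and 424 FPM in the aged library (log2 ratio 0.40). Myof, a ferlin of the plasma membrane, had the lowest locus ratio of the role, with 297 and 313 FPM (log2 ratio 0.08).

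Wwtr1, which encodes TAZ, a coactivator held in check by the Hippo pathway, differed most of all 39 genes over the locus. It had 94.7 FPM in the young and 233 FPM in the aged library, a log2 ratio of 1.30 (1.24 to 1.36). At its TSS it had 21.2 and 42.9 FPM, a log2 ratio of 1.02 (0.89 to 1.16), which was also the highest among the 9555 protein-coding genes with at least 20 FPM. The other genes of transcription and the nucleus were near level or below it, so the median of this role was -0.01 at the TSS. Bcl6, a repressor of B cell and inflammatory programs, had 42.4 and 44.6 FPM (log2 ratio 0.07). Lmna, which encodes A-type lamins, had 80.5 and 75.8 FPM (log2 ratio -0.09) with a locus log2 ratio of -0.14, and Tsc22d1, a leucine zipper protein, 62.7 and 57.5 FPM (log2 ratio -0.12).

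In the mixed group of other enzymes and regulators, 4 of 7 genes were past the threshold higher at the TSS and 2 of 7 over the locus. Clca3a1, of a family named as chloride channel regulators, had 7.36 FPM at the TSS in the young and 18.1 FPM in the aged library, a log2 ratio of 1.30 (1.08 to 1.53). Casp12, a caspase of the inflammatory group, had 7.99 and 14.0 FPM (log2 ratio 0.81), and Sbspon, a secreted matrix protein, 8.63 and 13.8 FPM (log2 ratio 0.68). Sbspon and Casp12 were also past the threshold over the locus, with log2 ratios of 0.78 and 0.37, whereas Clca3a1 with 0.28 was not. Across the alternatives the Casp12 value went down to 0.22, under the threshold, and that of Sbspon to 0.38. The Clca3a1 locus holds the TSS of another gene, and without 1 kb around it the log2 ratio was 0.49 (0.40 to 0.59). Trim47, a ubiquitin ligase, had 3.98 and 5.28 FPM at its annotated 5′ end (log2 ratio 0.41), but -0.080 at its most accessible start, which lies 16973 bp away. Ptgs1, the constitutive cyclooxygenase that makes the precursor of thromboxane, was the member with the lowest TSS ratio. It had 41.0 FPM in the young and 33.2 FPM in the aged library, a log2 ratio of -0.31 (-0.43 to -0.18), just inside the threshold, and its locus had a log2 ratio of -0.06. The remaining genes of the group, Ampd3 and Arhgap29, had TSS log2 ratios of 0.26 and -0.04.

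The share of genes past the threshold differed with level, for a reason that was not tested, so members were set beside all genes of similar level. Among genes with at least 20 FPM at the TSS, 11 of 21 members (52.4%) were past the threshold higher, while 0.806% of all genes at that level were. Between 5 and 20 FPM this was 9 of 14 members beside 17.8% of all genes, and under 5 FPM all 3 members beside 31.0%. The members that were higher were therefore not confined to weakly covered genes. Over the locus, 12 of 18 members (66.7%) with 50 to 150 FPM were past the threshold higher, beside 3.28% of all genes at that level. Among the loci with at least 150 FPM, 3 of 15 were, beside 1.44%.

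**Figure D2:**
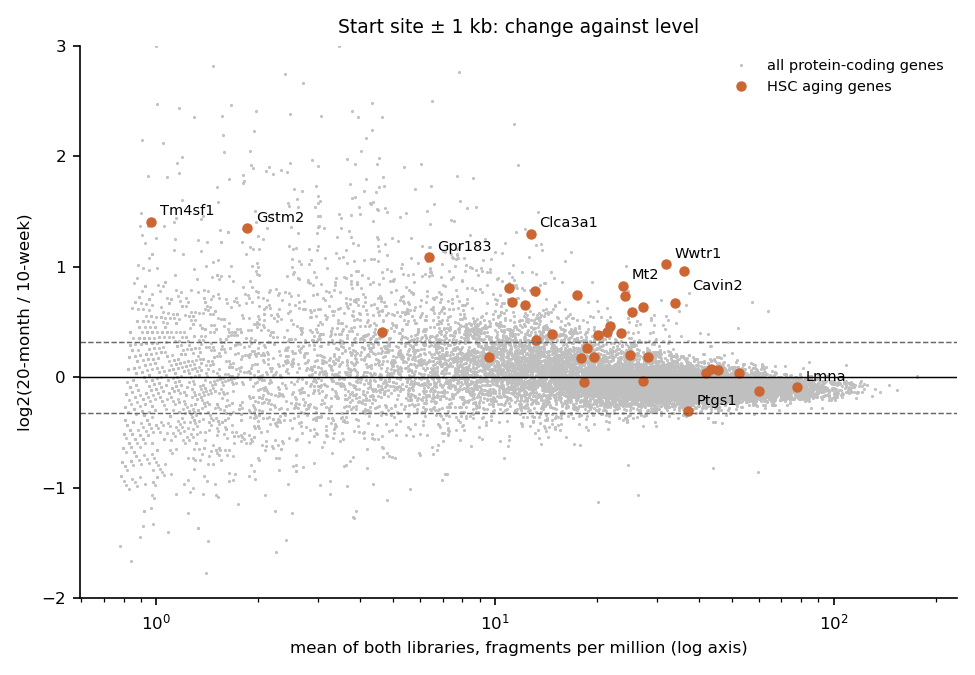
Log2 ratio of aged to young accessibility within 1 kb of the TSS against the mean of the 2 levels in FPM on a log axis, with all protein-coding genes in grey and the members in orange. Grey points narrow around 0 as the level grows, and 11 of the 21 members with at least 20 FPM lie past the threshold, where 0.806% of all genes do. The 4 genes with a log2 ratio above 3 are not shown.

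Members of both promoter classes lay above all genes of their class. CpG-rich promoters, those with a ratio of observed to expected CpG of at least 0.6 within 500 bp of the TSS, had 7 of 14 members past the threshold higher, with a median log2 ratio of 0.39 beside -0.07 for all such genes. CpG-poor promoters had 16 of 24 members past it, with a median of 0.40 beside 0.00. Over all genes, 5.41% of the CpG-rich and 16.2% of the CpG-poor promoters were past the threshold higher. The profile of fragment ends around the TSS gives the same difference by position. In the bin centered 25 bp upstream, members had 2.99 ends per 50 bp and gene in young and 3.54 in aged cells, scaled as above, while all genes had 3.80 and 3.51.

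**Figure D3:**
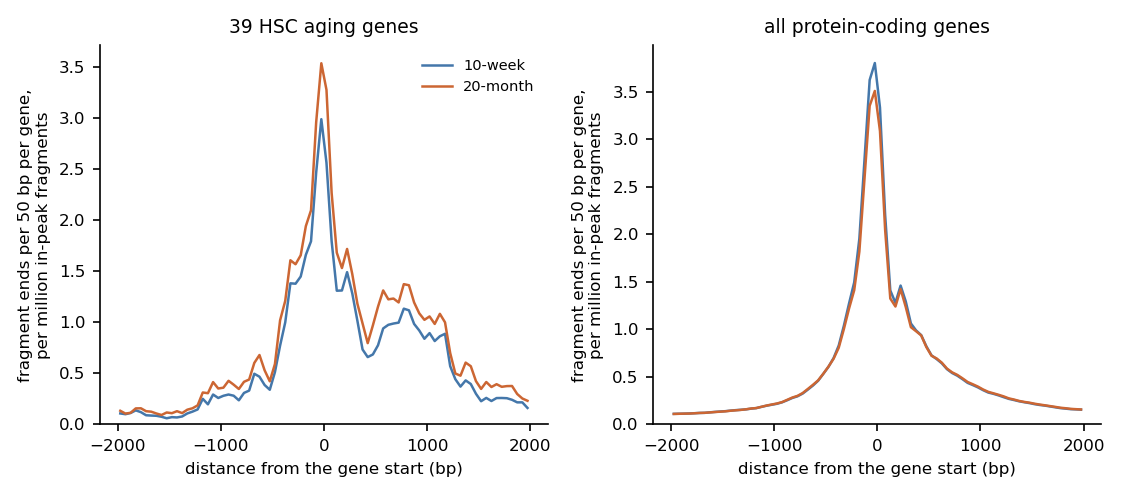
Fragment ends per 50 bp, per gene, scaled to the fragments in peaks, by distance from the TSS, for the members and for all protein-coding genes in the young and aged libraries. Just upstream of the start the members had 2.99 ends in young and 3.54 in aged cells, and all genes 3.80 and 3.51.

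Several members are also genes of endothelium, so the whole endothelial marker list was set beside them. Its 12 markers had a summed TSS level of 139 FPM in the young and 149 FPM in the aged library, a ratio of 1.08, and a median log2 ratio of 0.10 with a range from -0.66 to 1.29. Past the threshold, 3 of 12 (25%) were higher and 1 (8.33%) was lower, beside 9.49% and 3.96% of all genes. Over the locus 2 of 12 (16.7%) were higher, beside 10.7% of all genes. The stromal list had 86.6 and 99.2 FPM at the TSS, with 2 of 8 markers (25%) past the threshold higher, beside the same 9.49%. No marker of any list was at 0 in either library. In these libraries fewer or more cells of a type and a difference per cell cannot be told apart from summed levels, and the part of endothelial or stromal cells in the result was not tested. The sort took c-kit+ CD150+ cells and left out CD34+ cells, and how many endothelial or stromal cells passed it was not tested. HSC markers summed to 285 and 291 FPM at the TSS, with a median log2 ratio of -0.02. Over the locus the order differed, with ratios of sums of 1.06 for HSC, 1.02 for endothelial and 0.981 for stromal markers.

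Single peaks showed where in the loci a part of the differences lay. The locus levels also count fragments outside peaks, and how much of the differences lay there is not given here. The member loci held 588 peaks, of which 361 had at least 100 fragments over both libraries together. Peaks weak in the young library met this minimum mainly through their aged fragments. The median log2 ratio of the 361 was 0.18 (0.12 to 0.26), beside 0.00 for all peaks. Past 1.5-fold, 97 of 361 (26.9%) were higher in the aged library, beside 9.61% of all peaks. Lower past 1.5-fold were 8 (2.22%), beside 4.01% of all peaks. With each peak assigned to 1 gene only, 19 of the 44 peaks (43.2%) counted as own promoter peaks of members were higher, where 4.05% of all promoter peaks were. Peaks elsewhere in the gene body were higher in 64 of 205 cases (31.2%), and those in the flanks in 12 of 97 (12.4%), beside 10.8% of all peaks away from promoters. The flanks were thus close to the share of all such peaks, while promoters and gene bodies were above it. Peaks counted at promoters of neighboring genes were higher in 2 of 15 cases. Both were promoter peaks of Mt2, which is itself a member. They were assigned to the overlapping locus of Mt1 and so are not among the 44.

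Wwtr1 had the most peaks of this kind, 14 of 15. The 2 highest ratios of the list lay 59534 and 63379 bp downstream of its TSS, in an intron. The first peak had 27 fragments in young and 162 in aged cells (log2 ratio 2.95), and the second had 69 and 382 (log2 ratio 2.86). Both were weak in the young library, while the promoter peak of Wwtr1, with 20.9 and 42.1 FPM, had a log2 ratio of 1.01. In the locus of Bmpr1a, 7 of 10 peaks were higher, and 3 neighboring ones, 14382 to 18275 bp downstream of the TSS, had 26 and 105, 19 and 81, and 28 and 103 fragments (log2 ratios 2.38, 2.44 and 2.25). Its promoter peak had 21.6 and 40.2 FPM (log2 ratio 0.89). Exoc6b had 9 of 28 peaks higher, the strongest of them with 58 and 197 fragments (log2 ratio 2.15), and a promoter peak at 29.3 FPM in both libraries. In that gene the difference lay away from the promoter.

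**Figure D4:**
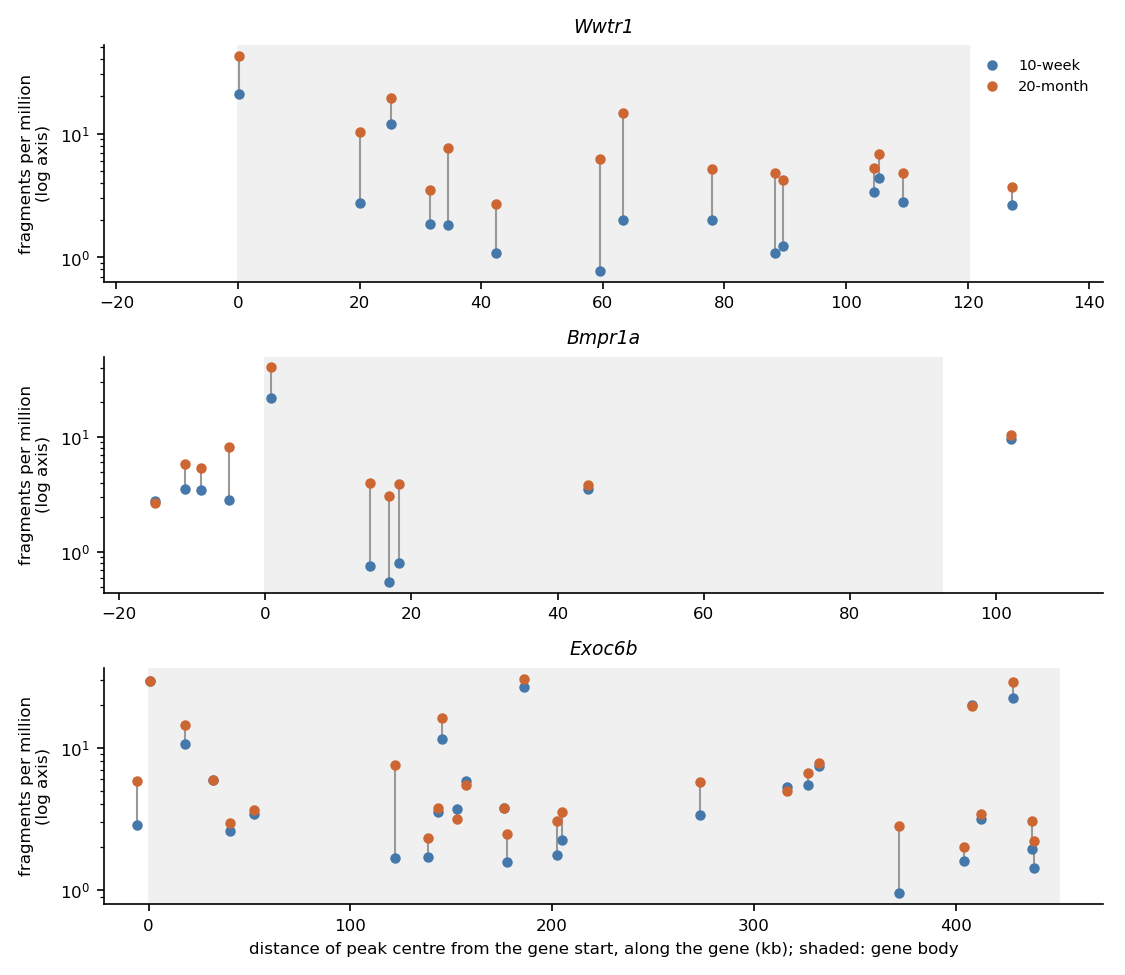
Level in FPM on a log axis of each peak with at least 100 fragments in the loci of Wwtr1, Bmpr1a and Exoc6b, by distance from the gene start in kb, young and aged. The gene body is shaded. The aged library is past 1.5-fold above the young in 14 of 15 Wwtr1 peaks and 7 of 10 Bmpr1a peaks, and in 9 of 28 Exoc6b peaks, where the promoter peak is level.

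In the remaining loci the count of such peaks ranged from 8 of 15 in Ptprk and 5 of 12 in the shared loci of Mt1 and Mt2 to none in Sult1a1, Ampd3, Mpdz, Trim47, Lmna, Ptgs1 and Tsc22d1. Enpp5 had a narrow peak upstream of its promoter with 17 and 83 fragments (log2 ratio 2.63) and a peak in the gene body with 50 and 222 (log2 ratio 2.53), while its promoter peak had 21.2 and 22.8 FPM. The Oxr1 element with 68 and 284 fragments (log2 ratio 2.45) lay deep in the gene, 5419 bp from an internal start of Oxr1. Ehd3 had an intronic peak with 37 and 130 fragments (log2 ratio 2.19) and the highest ratio in Ptprk was that of a peak with 37 and 110 (log2 ratio 1.95). Next to its internal start, Aldh1a1 had a nearby peak with 28 and 84 fragments (log2 ratio 1.96). Further Wwtr1 peaks had 38 and 125, 63 and 199, and 95 and 270 fragments (log2 ratios 2.10, 2.05 and 1.90). Among promoter peaks, Clca3a1 had 5.86 and 14.2 FPM (log2 ratio 1.28), Cavin2 23.3 and 44.7 FPM (log2 ratio 0.94) and Ptprk 21.7 and 34.1 FPM (log2 ratio 0.65). These promoters were open in both libraries and higher in the aged one. Over the 44 peaks counted as own promoter peaks, those of Mt2 not included, the log2 ratio was lowest in Ptgs1 at -0.34. It was highest in Plscr2, where the peak was weak, with 1.41 and 4.05 FPM.

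Peaks lower past 1.5-fold were few. The lowest was in an intron of Ampd3, which deaminates AMP, with 282 young and 97 aged fragments (log2 ratio -1.12). Next was a peak in the flank of Lmna, at a promoter of Sema4a, with 73 and 28 fragments (log2 ratio -0.95). Alcam had a peak with 90 and 37 fragments (log2 ratio -0.85) and the flank of Mamdc2 had 1 with 94 and 40 (log2 ratio -0.81). An alternative start of Oxr1 had 644 and 289 fragments (log2 ratio -0.75), so this gene held both a peak among the 5 highest and 1 among the 5 lowest of the list.

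The words searched in the peaks gave a description of what the higher elements share. Away from promoters, TGANTCA was present in the central 200 bases of 12 of 76 higher member peaks (15.8%) and 16 of 219 member peaks within 1.5-fold (7.31%). Among all peaks away from promoters it was present in 9.48%, and among the 8676 of them that were past 1.5-fold higher in 16.7%. The members' share thus lay near that of higher peaks in general. Wwtr1 supplied 5 of the 12, from 13 higher peaks, and without Wwtr1 the share was 7 of 63 (11.1%). AGATAA was present in 7 of 76 higher member peaks (9.21%) and 29 of 219 within 1.5-fold (13.2%), TGTGGT in 22.4% and 23.7%, and TTCNNNGAA in 7.89% and 5.02%. Over all peaks away from promoters, AGATAA was present in 11.9% of the higher ones and 9.61% of all. For TGTGGT these shares were 25.5% and 22.5%, and for TTCNNNGAA 7.61% and 6.44%. For AGATAA and TGTGGT the order thus differed from that of the members. A match is a description of the letters and does not show binding. Besides the second sequence above, 2 more of the Wwtr1 elements named here held the AP-1 word, chr3:57487552-57487751 and chr3:57555781-57555980, which were chosen for display after the word was found. Capitals mark the word as above.
Wwtr1, intron, 88258 bp from the TSS: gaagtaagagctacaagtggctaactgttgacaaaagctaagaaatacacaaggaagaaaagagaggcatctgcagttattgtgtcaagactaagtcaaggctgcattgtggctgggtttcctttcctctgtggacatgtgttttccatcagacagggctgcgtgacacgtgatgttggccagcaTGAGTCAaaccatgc
Wwtr1, intron, 20029 bp from the TSS: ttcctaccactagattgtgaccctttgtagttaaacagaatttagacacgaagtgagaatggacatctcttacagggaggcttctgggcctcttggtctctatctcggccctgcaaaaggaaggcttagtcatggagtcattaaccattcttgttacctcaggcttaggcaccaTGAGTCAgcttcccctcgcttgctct

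A score per cell asked whether the difference came from a few cells. After each cell was thinned to 3000 fragments in peaks, which left out 98 young and 134 aged cells, the members' TSS fragments among these were summed. Fragments of the windows outside peaks thus did not enter the score. The mean was 2.32 per young cell and 2.85 per aged cell, a ratio of 1.23, and the median was 2 and 3. Above the young median lay 53.5% of aged cells (exact binomial interval 51.8 to 55.3) and 39.9% of young cells. The 2 distributions overlapped broadly, and an aged cell drawn at random scored higher than a young one in 59.2% of pairs, with ties counted evenly. The variance was 1.05 times the mean in young and 1.03 times in aged cells, close to the value of 1 that counting alone gives. The TSS score thus did not show a separate group of high-scoring cells, though at 2 to 3 fragments per cell it could miss one.

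Over the loci the score was larger and the overlap smaller. Its mean went from 10.5 in young to 12.2 in aged cells (ratio 1.16), and 66.9% of aged cells (65.3 to 68.5) lay above the young median of 10, against 48.6% of young cells. Without thinning, as fragments per 10000 in peaks, the medians were 7.49 and 9.39 at the TSS and 34.8 and 40.7 over the loci. The score over the TSSs of all genes went the other way, with means of 1148 and 1098. A single gene did not carry the scores: without Cavin2 the ratio of means at the TSS was 1.21, and without Wwtr1 that over the loci was 1.14. Within 4 bins of matched depth, the log2 ratio of the members lay between 0.28 and 0.32 at the TSS and between 0.27 and 0.30 over the loci. The bins count all fragments of the windows, in peaks or not, so their ratios are not those of the score.

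**Figure D5:**
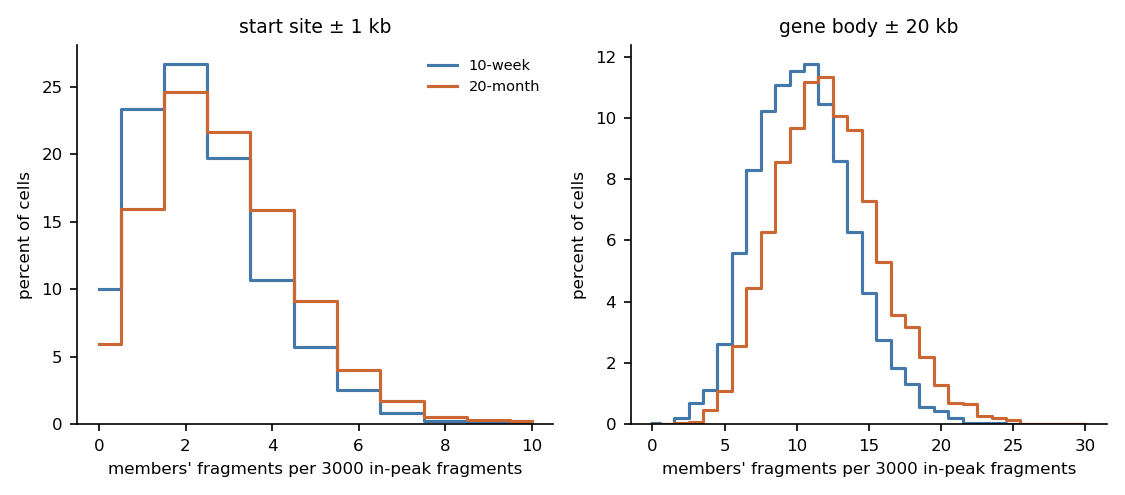
Share of young and aged cells by the number of in-peak fragments at the members' TSSs (left) and loci (right), after thinning each cell to 3000 fragments in peaks. The aged distribution is shifted to the right and overlaps the young one, with means of 2.32 and 2.85 at the TSS and 10.5 and 12.2 over the loci.

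The share of cells in which a locus was seen at this depth differed between genes. At least 1 in-peak fragment of the Wwtr1 locus was found in 17.8% of young and 39.7% of aged thinned cells, the widest gap of the genes named here. For Bmpr1a the shares were 14.2% and 24.4%, for Aldh1a1 7.37% and 14.2%, and for Tm4sf1 5.58% and 11.9%. At the TSS, Cavin2 was seen in 6.51% of young and 12.5% of aged cells. A cell without a fragment may still hold an open site, since each cell contributes at most a few copies of a locus.

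A pair of further lists put the members in context. A set of 16 other genes reported as raised in aged HSCs, many of them platelet genes, had a median log2 ratio of 0.27 (-0.19 to 0.56) at the TSS. Past the threshold there, 6 of 14 (42.9%) were higher and 2 (14.3%) lower, beside 9.49% and 3.96% of all genes. Over the locus the median was 0.23 (0.12 to 0.38), with 7 of 16 (43.8%) higher, beside 10.7% of all genes. Selp, which encodes P-selectin, was the highest of them at the TSS with a log2 ratio of 0.90, and Itga2b, the platelet integrin chain, the lowest with -0.35. The 12 genes of lymphoid priming had a median of -0.13 (-0.41 to 0.16) at the TSS and -0.06 (-0.19 to 0.12) over the locus. Past the threshold at the TSS none was higher and 4 (33.3%) were lower, beside 9.49% and 3.96% of all genes. Over the locus none was past it in either direction, beside 10.7% higher and 0.854% lower of all genes. Cd52, a lymphocyte surface protein, was the lowest at the TSS with a log2 ratio of -1.47. The members thus had a higher median than either list in both windows, with intervals that overlapped those of the other aging genes.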

How the data were processed

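The deposited fragment lists and barcode tables were used, in which the authors gave counts, with no normalization, of unique fragments per barcode and marked the barcodes called as cells. Per the labels, the authors used Cell Ranger ATAC and Signac on mm10. Whether the barcode tables came from the Cell Ranger ATAC release named in the study's methods was not settled, so no release is given. Members and gene lists were chosen with earlier results of these data known.

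Cells were barcodes called by the authors with 3000 to 20000 fragments in their peaks. Peaks were called anew on the fragment ends of these cells by a Poisson test in 151-bp windows (q under 0.001), with the genome mean or the 10000-bp local mean as background, whichever was higher, merged across gaps of 50 bp and over libraries, and kept from 100 bp. The combined peaks numbered 166218. A fragment counted once in a window that held at least 1 of its ends, scaled to fragments in combined peaks. Log2 ratios used a pseudocount of 1 fragment, with minimums of 50 fragments per gene and 100 per peak, counted over both libraries together. TSSs and genes came from GENCODE M21 on GRCm38, the same build as mm10, with 1-based coordinates. Ratio intervals came from the exact binomial share. Doublets were marked by loci with at least 3 fragments of 1 cell.

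Values were given for members past a log2 ratio of 0.32 in either window, the highest and lowest of each role, and the 15 highest and 5 lowest peaks. For promoter peaks, the named ones and the range were given. Python 3.11.15, numpy 2.4.6, pandas 2.3.3, scipy 1.17.1, numba 0.67.0 and matplotlib 3.10.9 were used, and the scripts were tested on simulated counts.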

Additional observations from a re-analysis of the deposited data

How the results depend on the processing

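With 1 library per age no result has a replicate, and depth limits the genes under 5 FPM and the peaks near the minimum of 100 fragments. No paired analysis was possible because each age has 1 library. Over the alternatives for cells, scaling, windows, pseudocount, minimum and fragment length, the median at the TSS stayed between 0.32 and 0.45. The count there was 29 at 1.1-fold and 16 at 1.5-fold, beside 18.7% and 3.99% of all genes. Over the locus, the median was 0.48 for the gene body with 2 kb upstream and otherwise 0.26 to 0.33, and the count was 30 at 1.1-fold and 9 at 1.5-fold, beside 21.7% and 4.35% of all genes. Higher peaks numbered 55 with cells of 6000 to 10000 fragments, 55 with fragments shorter than 1 nucleosome, 53 with a minimum of 200 fragments (5.93% of all peaks), 156 with a minimum of 50 (13.2%) and 43 at 2-fold (3.42%). All of these alternatives change by construction how many peaks are tested or pass. Restricting cells or fragment lengths leaves fewer fragments per peak, with the same minimum of 100. Whether this accounts for the whole change was not tested. The share of all peaks for the restricted cells and fragment lengths is not given here. The share of aged cells above the young median was 69.4% at the TSS without thinning (young cells 49.97%) and 50.2% without Cavin2 (young cells 37.8%). Over the locus it was 71.5% with thinning to 5000 (young cells 48.6%), 76.9% without thinning (49.99%) and 61.3% without Wwtr1 (45.8%). The ratio of Trim47 at the TSS turned to -0.080 at its most covered start, which is another window. At the TSS 17 of the 23 higher members were past the threshold in every setting that gave them a value, which for Tm4sf1 was 10 settings and for the others 14. Amotl2, Art4, Jam2, Sult1a1, Trim47 and Vldlr were not. Over the locus 12 of 19 were, and Gpr183, Cd38, Casp12, Enpp5, Ghr, Neo1 and Vldlr, with values of 0.17 to 0.32 where they fell short, were not. Leaving out shared barcodes, scaling to TSS fragments and leaving all TSS windows out of the loci were chosen after seeing the data. Without shared barcodes 23 and 19 members and 96 peaks were higher, and without TSS windows 18 loci.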

Other observations

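Some member loci held peaks past 1.5-fold in both directions, which their summed levels do not show. In Oxr1, an alternative start had 18.6 FPM in the young and 11.1 FPM in the aged library (log2 ratio -0.75), while a peak 3568 bp from another start had 8.48 and 20.6 FPM (log2 ratio 1.28). In Myof, a peak in the gene body had 110 and 50 fragments (log2 ratio -0.72) and another, 5110 bp downstream of the TSS, had 92 and 172 (log2 ratio 1.30), beside a locus log2 ratio of 0.08. Alcam held 1 peak with 90 and 37 fragments (log2 ratio -0.85) and 1 with 44 and 57 (log2 ratio 0.77). In Mamdc2, a flank peak 2607 bp upstream of the TSS had 141 and 67 fragments (log2 ratio -0.66), and a peak in the gene body had 59 and 71 (log2 ratio 0.67). These peaks were picked after their values were seen, and the counts behind most of them are low.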
